A study of Homo sapiens with 3 samples.

Results

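Chromatin repressors are the enzymes and scaffolds that close chromatin or mark it as silent, and the 40 genes described here encode the NuRD, HUSH, Polycomb, corepressor, methyltransferase, remodeller and histone chaperone proteins of that kind. They were taken by gene symbol from a list of such genes, a rule that uses no expression value, although the list was drawn up with earlier results of these data known. All 40 were present among the 19049 genes kept from the deposited table. RNA was sequenced from MDA-MB-231, an established human cell line of basal-like breast cancer, in which a short hairpin RNA held down the cells' endogenous KAP1. KAP1, the product of TRIM28, is the corepressor that KRAB zinc finger proteins recruit to DNA. Depletion is shared by every group, and the groups differ in the KAP1 that was put back: S473D, with aspartate in place of a serine as a mimic of its phosphorylated state, S473A, with an alanine that cannot be phosphorylated, and wt, with the serine intact. Each form of KAP1 gave 1 library. Whether the lines were single clones or pools, and which promoter drove the re-expressed KAP1, is not given in the sources used here.

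Silencing by KAP1 depends on partners. KAP1 recruits the NuRD complex, which removes acetyl groups from histones and slides nucleosomes, while H3K9 methyltransferases and HP1 proteins build the silent mark and the HUSH complex spreads it over retroelements. DNA methyltransferases, Polycomb and the ATRX and CAF-1 histone chaperones keep other parts of the genome closed and restore that state after replication. Breast cancer cells express most of these genes, and several of them, such as DNMT1, UHRF1 and EZH2, are usually higher in dividing cells.

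Levels are in RPKM, which is the number of reads on a gene scaled to the length of its transcript and to the depth of its library. Differences are between log2(RPKM + 1) values, written as tested form minus its comparator, and were taken over the 11579 genes that averaged 1 RPKM or more, a filter that all 40 genes passed. With 1 library per form there is no replicate error and no test, so a gene was counted as lower or higher where its difference reached 0.322 on that log2 scale, a ratio of 5 to 4. Counts over the 40 stand beside the share of all 11579 genes past the same line, and counts within smaller groups are to be read against the shares for S473D and wt, 22.9% lower and 16.6% higher. Intervals beside ratios of RPKM are 95% intervals for counting error alone, computed from reads estimated for each gene, between 284 and 9899 per library for the 40 genes. They do not cover the spread between cultures.

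Estimated depth was 23900000 reads for S473D, 29300000 for S473A and 25600000 for wt. TRIM28 stood at 25.6 RPKM in S473D, 32.3 RPKM in S473A and 28.7 RPKM in wt, and the table does not tell endogenous transcript from the re-expressed one. Of 8 markers of mesenchymal basal lines, 7 were measured and summed to 2003, 1858 and 1861 RPKM in S473D, S473A and wt, with VIM at 673, 740 and 738 RPKM and SPARC under 1 RPKM. In S473D, 4 of the 7 were lower than wt (MSN at -0.55, AXL at -0.48, ZEB1 at -0.41 and CD44 at -0.39) and LDHB was higher at 0.69. Of 12 epithelial and luminal markers, 6 stayed under 1 RPKM in every library, among them CDH1, EPCAM, ESR1 and PGR, whereas the keratins KRT8 (178, 126 and 131 RPKM), KRT18 (188, 169 and 171 RPKM) and KRT19 (21.5, 9.45 and 11.1 RPKM) were abundant. KRT8 (0.44) and KRT19 (0.89) were higher and ERBB2 (-0.50) lower in S473D than in wt, and the list summed to 397, 317 and 326 RPKM. Of 3 blood cell markers in the table, PTPRC and ITGAM stood below 0.05 RPKM in every library and CD68 at 36.7, 51.6 and 50.1 RPKM. The part of these markers in the members' values was not tested. In S473D the median difference from wt over all 11579 genes was -0.10, and short transcripts were higher. The shortest of 3 equal groups by transcript length, up to 2404 bases, had a median of 0.13. The 34 cytosolic ribosomal protein genes, short and abundant, had a median difference of 0.82. Theirs was 0.35 once smooth trends over transcript length and GC content were taken out, beside -0.10 for all genes with a transcript.

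Most chromatin repressor transcripts were modestly less abundant in S473D than in either other library. S473D had the lowest value of the 3 libraries for 33 of the 40 genes, against 57.1% of all genes tested, and the highest for 5, against 35.7%. Compared with wt, 34 of 40 were below 0 (60.7% of all genes), 14 were counted as lower (22.9% of all genes) and 0 as higher (16.6% of all genes). The median difference of the 40 was -0.24, with quartiles of -0.39 and -0.11 and a range of -0.66 to 0.31. None of the 40 was 2-fold apart, a distance that 1.09% of all genes reached. The differences were thus small and shared by many members, with SIN3A at the low end and HELLS at the high end.

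These counts depend on how the S473D library is scaled. Centred on the median of all genes, the split was 6 lower and 3 higher (12.6% and 21.9% of all genes), with HDAC2, PPHLN1 and HELLS as the higher genes. Once smooth trends of the differences over transcript length and GC content had been taken out, the median of the 40 was -0.13 against -0.10 for all genes with a transcript, and 9 were lower and 0 higher (18.1% and 7.55% of all such genes). Of the 40, 31 were below 0 when centred, where all genes split evenly by construction, and 31 with the trends removed (65.5% of all genes with a transcript). With both steps together 23 of 40 were below 0, again beside an even split of all genes, so most of the excess of low values was no longer seen. In that setting 1 gene, SIN3A, was lower and 2 were higher, against 9.72% and 12.9% of all genes.

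**Figure D1:**
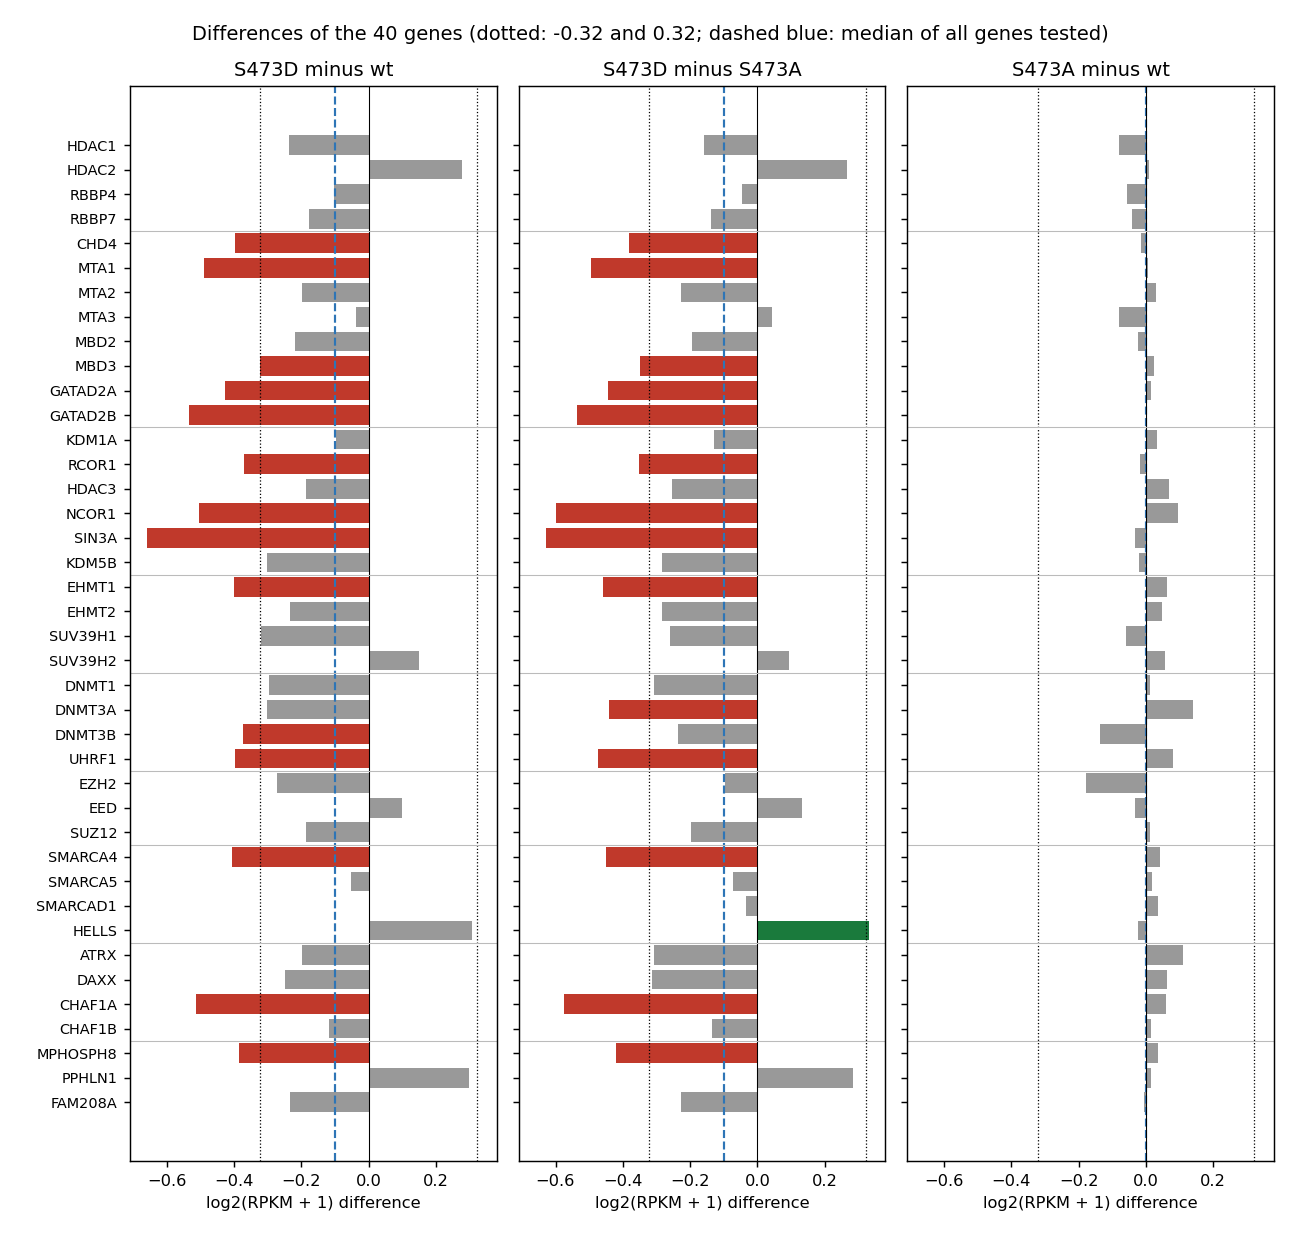
Differences of log2(RPKM + 1) for the 40 genes, 1 bar per gene, in 3 panels: S473D minus wt, S473D minus S473A and S473A minus wt. Dotted lines mark -0.32 and 0.32, the dashed line the median of all genes tested, and red or green bars pass the dotted lines. Most bars in the S473D panels point left, to -0.66 for SIN3A, while the S473A minus wt bars lie between -0.18 and 0.14.

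NuRD joins a deacetylase module to a remodelling module. In the deacetylase module, HDAC1 stood at 41.3 RPKM in S473D, 46.2 RPKM in S473A and 48.9 RPKM in wt. HDAC2, its close relative in the same complex, stood at 26.2, 21.7 and 21.5 RPKM in S473D, S473A and wt. The deacetylases therefore lay on opposite sides of the other libraries in S473D, with ratios to wt of 0.845 for HDAC1 (interval 0.798 to 0.896) and 1.22 for HDAC2 (interval 1.18 to 1.27). RBBP7, a histone-binding WD40 protein, was the most abundant of all 40 transcripts, at 92.5 RPKM in S473D, 102 RPKM in S473A and 105 RPKM in wt. RBBP4, which has the same role, stood at 12.3, 12.7 and 13.3 RPKM in those libraries. None of these 4 reached the line, and their median difference from wt was -0.14. With the trends on length and GC content removed, HDAC1 (-0.35) and RBBP7 (-0.36) were past the line. RBBP4 was then at -0.03 and HDAC2 at 0.29, and the median was -0.19.

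All 8 genes of the NuRD remodeller and its scaffolds were below wt in S473D, 5 of them past the line, with a median of -0.36. With the trends on length and GC content removed their median was -0.11, near the -0.10 of all genes, and MTA3 was at 0.24. CHD4, the helicase that moves nucleosomes, stood at 29.2 RPKM in S473D, 38.4 RPKM in S473A and 38.8 RPKM in wt, a ratio of 0.753 to wt (interval 0.725 to 0.782). MTA1, a scaffold that binds the deacetylases and is known for its link to breast cancer metastasis, stood at 13.1 RPKM in S473D and 18.8 RPKM in both S473A and wt, a ratio of 0.697 (interval 0.640 to 0.759). MTA2 was at 43.2, 50.7 and 49.7 RPKM in S473D, S473A and wt. MTA3 was at 14.2, 13.8 and 14.6 RPKM in that order, so among the MTA scaffolds S473D stood lowest for MTA1 and MTA2 and between the other libraries for MTA3.

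MBD3 and MBD2 give NuRD alternative subunits, of which MBD2 binds methylated DNA. MBD3 was at 39.4 RPKM in S473D, 50.5 RPKM in S473A and 49.6 RPKM in wt. MBD2 was much lower, at 5.09, 5.97 and 6.09 RPKM in those libraries. GATAD2B, which ties the MBD protein to CHD4, stood at 6.13 RPKM in S473D, 9.34 RPKM in S473A and 9.31 RPKM in wt. Its ratio to wt of 0.658 (interval 0.610 to 0.710) was the lowest in NuRD. GATAD2A, its relative, was at 14.3, 19.8 and 19.5 RPKM, a ratio of 0.731 to wt (interval 0.690 to 0.774). MBD3 stood just past the line, at -0.324, and SUV39H1 just short of it, at -0.321. The MBD3 difference was 0.02 once trends on length and GC content were removed, and that of CHD4 was -0.12, against -0.35 for MTA1 and -0.31 for GATAD2B.

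Corepressor scaffolds included the gene with the greatest difference of the 40. SIN3A, the scaffold of a separate HDAC1 and HDAC2 complex, stood at 8.51 RPKM in S473D, 13.7 RPKM in S473A and 14.0 RPKM in wt, a ratio of 0.607 to wt (interval 0.568 to 0.649). Its log2 difference from wt was -0.66, and 1.42% of all genes tested were lower still. NCOR1, which brings HDAC3 to nuclear receptors, stood at 7.41 RPKM in S473D, 11.7 RPKM in S473A and 10.9 RPKM in wt, a ratio of 0.678 to wt (interval 0.639 to 0.718). HDAC3, the enzyme of that complex, was closer to the other libraries, at 28.1, 33.7 and 32.1 RPKM in S473D, S473A and wt. S473D thus had the lowest level of both, with the scaffold further from wt (-0.51) than its enzyme (-0.19), although with the trends removed they stood at -0.33 and -0.28.

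The CoREST complex couples the H3K4 demethylase KDM1A to HDAC1 and HDAC2 through RCOR1. RCOR1 stood at 8.32 RPKM in S473D, 10.9 RPKM in S473A and 11.0 RPKM in wt. KDM1A stood at 26.0, 28.5 and 27.8 RPKM in those libraries, and KDM5B, a demethylase that also removes H3K4 methylation, at 7.27, 9.05 and 9.19 RPKM. RCOR1 lay past the line (-0.37) and the enzymes did not (-0.10 for KDM1A and -0.30 for KDM5B). With the trends removed the values were -0.25, -0.03 and -0.15. The place of KDM5B depends on the pseudocount: its RPKM ratio to wt was 0.791, and with a pseudocount of 0.1 it was counted as lower. In all, 3 of the 6 corepressor genes were counted as lower than wt, and their median was -0.34, or -0.27 with the trends on length and GC content removed.

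Promoter sequences are shown for the genes at the ends of the range, SIN3A, GATAD2B and CHAF1A as the lowest and HELLS as the highest in S473D against wt. They come from RefSeq on build GRCh38.p14 and run from 250 bases before to 50 bases after the annotated start, 5′ to 3′ on the gene's strand. Capitals mark matches on either strand to CCAAT (the CCAAT box), GGGGCGGGG (an SP1 site) and TTTCGCGC or TTTGGCGC (E2F sites).
SIN3A, chr15:75451641-75451940, minus strand: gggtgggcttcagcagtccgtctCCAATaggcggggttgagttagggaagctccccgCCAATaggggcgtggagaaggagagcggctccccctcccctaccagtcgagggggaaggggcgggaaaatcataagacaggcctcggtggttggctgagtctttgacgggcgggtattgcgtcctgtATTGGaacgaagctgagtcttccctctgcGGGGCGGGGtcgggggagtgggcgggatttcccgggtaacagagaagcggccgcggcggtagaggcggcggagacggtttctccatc
GATAD2B, chr1:153922923-153923222, minus strand: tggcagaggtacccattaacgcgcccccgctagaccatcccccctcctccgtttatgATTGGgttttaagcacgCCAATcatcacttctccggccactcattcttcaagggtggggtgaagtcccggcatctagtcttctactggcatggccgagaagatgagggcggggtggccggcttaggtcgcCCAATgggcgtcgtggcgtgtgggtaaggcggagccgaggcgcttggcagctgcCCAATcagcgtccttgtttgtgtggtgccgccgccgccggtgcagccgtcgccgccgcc
CHAF1A, chr19:4402390-4402689, plus strand: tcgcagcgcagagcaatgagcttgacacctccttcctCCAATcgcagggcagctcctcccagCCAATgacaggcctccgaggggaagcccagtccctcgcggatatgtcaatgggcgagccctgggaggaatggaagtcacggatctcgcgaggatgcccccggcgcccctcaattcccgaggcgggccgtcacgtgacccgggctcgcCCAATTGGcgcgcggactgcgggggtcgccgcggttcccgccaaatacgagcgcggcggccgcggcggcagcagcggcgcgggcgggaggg
HELLS, chr10:94545538-94545837, plus strand: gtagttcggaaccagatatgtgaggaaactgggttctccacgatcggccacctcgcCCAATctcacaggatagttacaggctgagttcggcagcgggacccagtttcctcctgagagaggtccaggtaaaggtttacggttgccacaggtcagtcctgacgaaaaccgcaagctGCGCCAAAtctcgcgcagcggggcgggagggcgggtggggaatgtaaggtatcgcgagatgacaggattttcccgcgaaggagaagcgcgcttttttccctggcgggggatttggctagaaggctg

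All 4 windows hold a CCAAT box, as do 16 of the 37 member promoters that matched (43.2%) and 34.6% of the 35116 promoters in the same table. SIN3A has 3 CCAAT boxes and 1 SP1 site, GATAD2B and CHAF1A have 4 CCAAT boxes each, and in CHAF1A the last of them overlap on opposite strands. HELLS has 1 CCAAT box and, on the other strand, 1 E2F site of the TTTGGCGC form, which 0.652% of all promoters hold and no other member promoter does. Only the exact forms TTTCGCGC and TTTGGCGC were searched. Close variants were not marked, such as ttcccgccaaa in CHAF1A and tttcccgcg in HELLS. The search therefore does not show whether HELLS and CHAF1A differ in E2F sites. The TTTCGCGC form was found in DNMT1 alone among the members and in 0.515% of all promoters, and the SP1 site in 11 of 37 (29.7%) against 15.7%. CpG dinucleotides numbered 24 in SIN3A, 26 in GATAD2B, 37 in CHAF1A and 22 in HELLS, beside medians of 31.0 over the member promoters and 14.0 over all. A match describes these letters and not a bound site.

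Enzymes that methylate lysine 9 of histone H3 were split. EHMT2 (G9a), which writes H3K9 mono- and dimethylation in euchromatin, stood at 19.0 RPKM in S473D, 23.4 RPKM in S473A and 22.6 RPKM in wt. EHMT1 (GLP), its obligate partner, was at 6.17, 8.86 and 8.46 RPKM and counted as lower than wt, with a ratio of 0.730 (interval 0.665 to 0.801). The partners were thus both lowest in S473D. SUV39H1, which writes H3K9 trimethylation at pericentromeres, stood at 9.02 RPKM in S473D, 11.0 RPKM in S473A and 11.5 RPKM in wt. SUV39H2, its relative, stood at 13.9, 13.0 and 12.4 RPKM, highest in S473D, with a ratio to wt of 1.12 (interval 1.02 to 1.22). With the trends on length and GC content removed, the S473D minus wt differences were -0.20 for SUV39H1 and -0.01 for SUV39H2. EHMT1 was then at -0.10 and EHMT2 at 0.02, and the median of these H3K9 genes was -0.06, against -0.10 for all genes with a transcript.

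DNA methylation genes were all below wt in S473D, 2 of 4 past the line, with a median of -0.34. DNMT1, which copies methylation onto new DNA strands, stood at 50.3 RPKM in S473D, 62.5 RPKM in S473A and 61.9 RPKM in wt. UHRF1, which guides DNMT1 to hemimethylated sites, stood at 33.7, 47.3 and 44.7 RPKM, a ratio of 0.755 to wt (interval 0.722 to 0.788). These maintenance genes were far more abundant than the de novo enzymes. DNMT3A stood at 2.46 RPKM in S473D, 3.70 RPKM in S473A and 3.27 RPKM in wt, and DNMT3B at 2.74, 3.40 and 3.84 RPKM. S473D was lowest for both, whereas S473A stood above wt for DNMT3A and below wt for DNMT3B. With the trends removed the median of these 4 was -0.08, against -0.10 for all genes with a transcript, with DNMT3A at 0.05, DNMT1 at 0.00, DNMT3B at -0.16 and UHRF1 at -0.18.

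Polycomb repressive complex 2 places H3K27 methylation through the enzyme EZH2 and its partners EED and SUZ12. EZH2 stood at 10.1 RPKM in S473D, 10.8 RPKM in S473A and 12.4 RPKM in wt, so both substituted forms lay under wt. EED, which reads the mark, stood at 27.4, 24.9 and 25.5 RPKM, and SUZ12 at 16.8, 19.4 and 19.3 RPKM. None of the 3 reached the line as measured. With the trends on length and GC content removed, EZH2 was past it at -0.41, with SUZ12 at -0.30 and EED at -0.08. Their median was then -0.30, against -0.10 for all genes with a transcript. The EZH2 ratio to wt was 0.814 in S473D (interval 0.733 to 0.903) and 0.874 in S473A (interval 0.793 to 0.963), and that of EED in S473D was 1.07 with an interval that included 1 (0.998 to 1.16).

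Remodeller ATPases lay on both sides of wt, from -0.41 to 0.31, but from -0.14 to 0.07 with the trends removed. SMARCA4 (BRG1), the motor of BAF complexes, stood at 27.3 RPKM in S473D, 37.7 RPKM in S473A and 36.5 RPKM in wt, a ratio of 0.748 to wt (interval 0.717 to 0.780). HELLS (LSH), which supports DNA methylation at repeats, stood at 17.7 RPKM in S473D, 13.8 RPKM in S473A and 14.1 RPKM in wt, a ratio of 1.28 to S473A (interval 1.18 to 1.38). HELLS was the only one of the 40 counted as higher in S473D than in S473A, and it lay just short of that line against wt (0.31). SMARCA5, the ISWI motor, was at 15.1, 15.9 and 15.7 RPKM in S473D, S473A and wt. SMARCAD1, a remodeller that interacts with KAP1 and helps restore silent marks after replication, was at 11.1, 11.4 and 11.1 RPKM. Counting intervals of the ratio to wt included 1 for SMARCA5 (0.914 to 1.01) and SMARCAD1 (0.929 to 1.08). The values with the trends removed were -0.06 for SMARCA4 and 0.07 for HELLS.

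Histone chaperones deposit new histones. CHAF1A, the large subunit of CAF-1, which loads H3 and H4 behind replication forks, stood at 13.5 RPKM in S473D, 20.6 RPKM in S473A and 19.8 RPKM in wt, a ratio of 0.685 to wt (interval 0.634 to 0.740). CHAF1B, the next subunit, was at 9.90, 11.0 and 10.8 RPKM. The log2 differences from wt were -0.51 for CHAF1A and -0.12 for CHAF1B, the latter near the -0.10 of all genes. With the trends on length and GC content removed, they were -0.36 and 0.02. DAXX, the chaperone of histone H3.3, stood at 38.5 RPKM in S473D, 48.0 RPKM in S473A and 45.9 RPKM in wt, and ATRX, its remodeller partner at repeats, at 4.43, 5.73 and 5.23 RPKM. For both of these S473A was above wt and S473D below it. Their S473D minus wt differences with the trends removed were -0.19 for DAXX and -0.22 for ATRX.

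HUSH joins FAM208A (TASOR), MPHOSPH8 (MPP8) and PPHLN1 (periphilin) and silences retroelements over H3K9 trimethylation. MPHOSPH8, the subunit that reads the mark, stood at 8.27 RPKM in S473D, 11.4 RPKM in S473A and 11.1 RPKM in wt, a ratio of 0.745 to wt (interval 0.681 to 0.814). FAM208A, the scaffold, was at 9.39 RPKM in S473D and 11.2 RPKM in both S473A and wt. PPHLN1 stood at 23.2, 18.9 and 18.7 RPKM in S473D, S473A and wt, a ratio of 1.24 to wt (interval 1.16 to 1.33). PPHLN1 thus went the other way from its partners, with log2 differences of 0.30, -0.39 for MPHOSPH8 and -0.23 for FAM208A. The same order held with trends on length and GC content removed (0.17, -0.38 and -0.32).

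**Figure D2:**
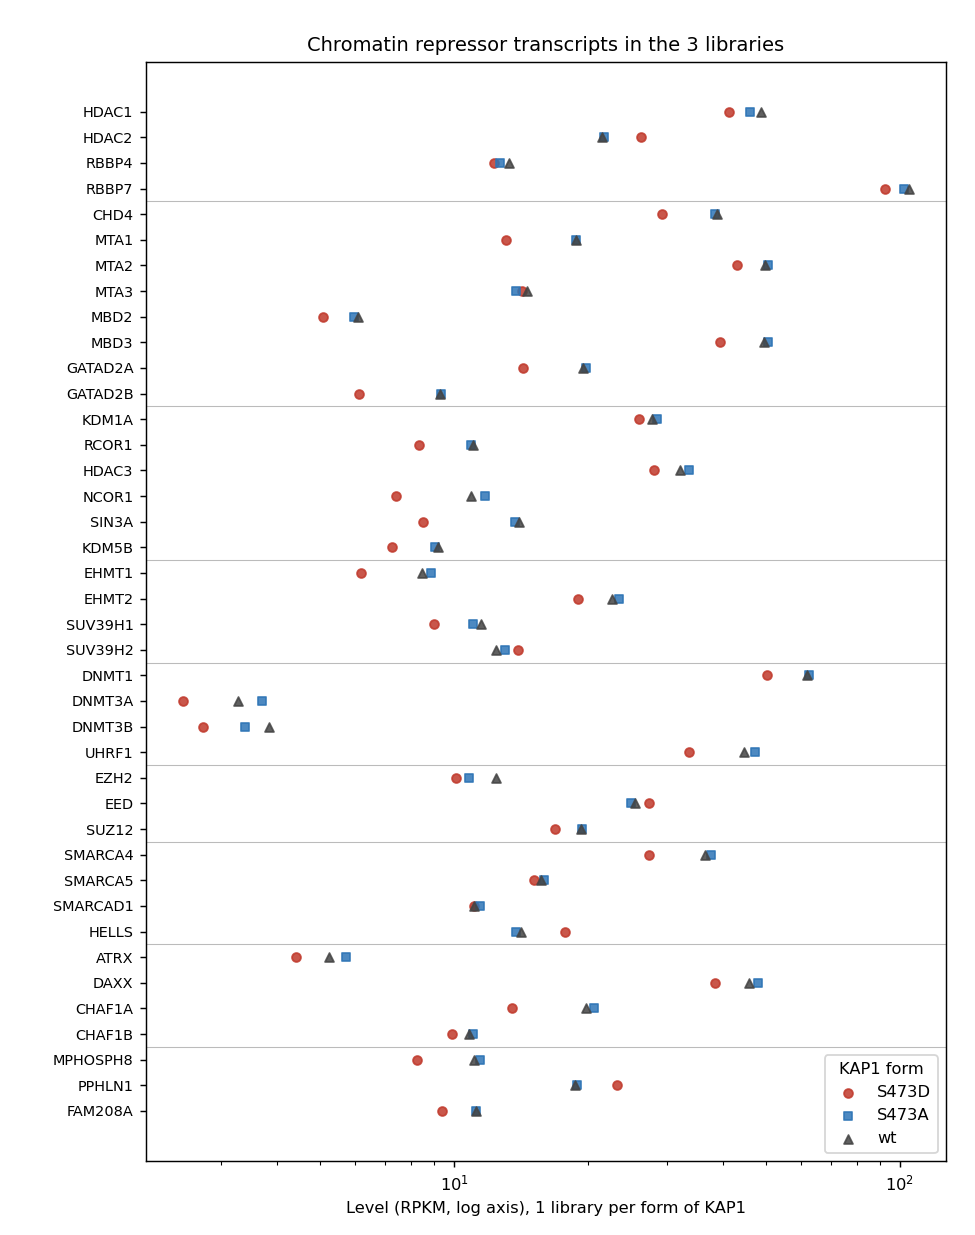
Levels of the 40 genes in RPKM on a log axis, 1 point per library, with red circles for S473D, blue squares for S473A and dark triangles for wt, in blocks by role. S473A and wt mostly overlap, and the S473D point lies left of both for 33 genes and right of both for 5, among them HDAC2, HELLS and PPHLN1.

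Ratios between related genes within 1 library do not depend on how that library is scaled. The HDAC1 to HDAC2 ratio was 1.58 in S473D, 2.14 in S473A and 2.27 in wt, so the ratio in S473D was 0.693 times that in wt (interval 0.647 to 0.741). The MTA1 to MTA3 ratio was 0.920 in S473D, 1.37 in S473A and 1.28 in wt. The SUV39H1 to SUV39H2 ratio was 0.650, 0.849 and 0.927 in those libraries. Against wt these ratios in S473D were 0.716 times (interval 0.646 to 0.795) and 0.701 times (interval 0.612 to 0.801) as high, so in each set the gene that was lower in S473D made up less of the sum with its relative. The relatives also differ in transcript length and GC content: the HDAC1 transcript has 2124 bases and 49.4% GC, that of HDAC2 9874 bases and 38.2% GC. With those trends removed the gap between S473D minus wt differences was -0.65 for HDAC1 and HDAC2, -0.58 for MTA1 and MTA3 and -0.18 for SUV39H1 and SUV39H2.

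HDAC2 to HDAC3 also stood apart, at 0.933 in S473D, 0.642 in S473A and 0.670 in wt, or 1.39 times the wt ratio (interval 1.28 to 1.51). MTA1 to MTA2 was 0.303, 0.371 and 0.378 in those libraries, or 0.802 times (interval 0.729 to 0.883). HDAC2 was thus higher, and MTA1 lower, relative to both of its relatives. Some ratios were closer to those in wt. RBBP4 to RBBP7 was 0.133 in S473D, 0.125 in S473A and 0.127 in wt, and MBD2 to MBD3 was 0.129, 0.118 and 0.123. The change against wt was 1.05 for both, with intervals that included 1 (0.981 to 1.12 for RBBP4 and RBBP7, 0.942 to 1.17 for MBD2 and MBD3). With the trends removed, however, the gap between RBBP4 and RBBP7 was 0.32, against 0.07 as measured, and that between MBD2 and MBD3 was -0.12, against 0.10. GATAD2A to GATAD2B was 2.33, 2.12 and 2.10, or 1.11 times the wt ratio in S473D (interval 1.01 to 1.22). EHMT1 to EHMT2 was 0.325, 0.379 and 0.375, or 0.866 times (interval 0.776 to 0.967). Neither of these intervals included 1. Across the 12 sets compared, the DNMT3A to DNMT3B ratio stood apart in S473A, at 1.09 against 0.851 in wt (1.28 times, interval 1.09 to 1.51), with 0.900 in S473D. No 50-base window of 1 relative's transcript occurred in the other's in any of these 12 sets.

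**Figure D3:**
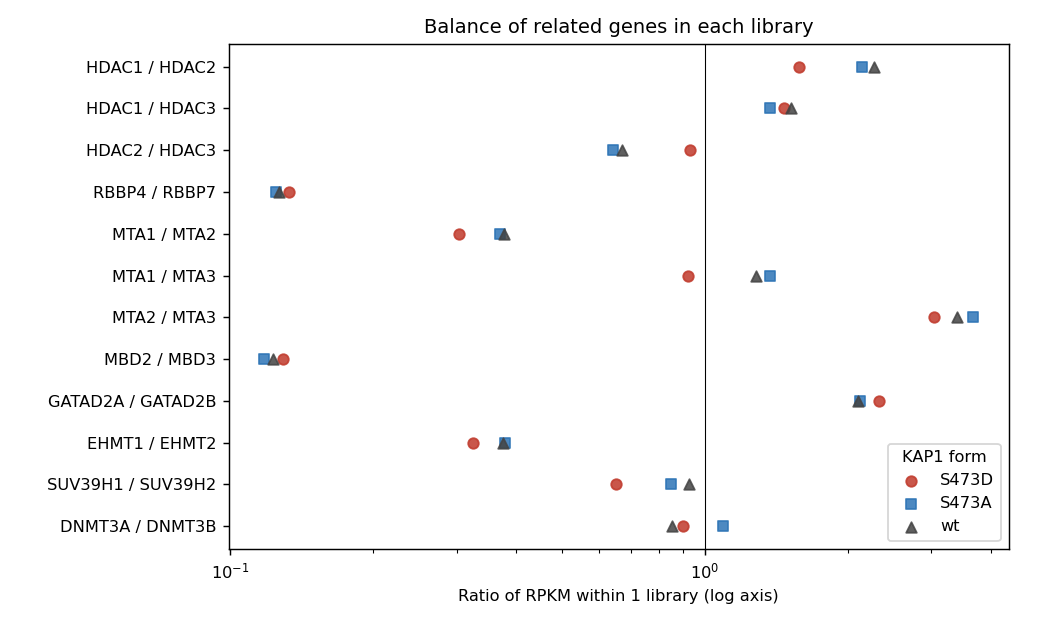
Ratio of RPKM between related genes within each library, on a log axis, 1 row per set and 1 point per library. The S473D circle lies left of the S473A and wt points for HDAC1 / HDAC2 (1.58 against 2.14 and 2.27), MTA1 / MTA3 (0.920 against 1.37 and 1.28) and SUV39H1 / SUV39H2 (0.650 against 0.849 and 0.927).

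Against S473A, the S473D library gave the same picture with its own values, although both comparisons share the S473D library. The median difference of the 40 was -0.26 beside -0.10 for all genes, 14 were counted as lower (22.7% of all genes) and 1 as higher (16.7%), and 0 were 2-fold apart (1.13%). Here 34 of 40 were below 0, against 60.7% of all genes. Centring left 10 lower and 3 higher (12.4% and 22.3% of all genes), removal of the trends 8 and 0 (18.0% and 7.36%), and both together 3 and 2 (9.66% and 12.5%). SIN3A was at -0.63, NCOR1 at -0.60, CHAF1A at -0.57 and GATAD2B at -0.54. DNMT3A was past the line in this comparison (-0.44) and DNMT3B was not (-0.24), the reverse of their positions against wt (-0.30 and -0.37). That reversal depends on the pseudocount of 1 at these low levels. With a pseudocount of 0.1 or 0.5, DNMT3A was also counted as lower than wt, where its RPKM ratio was 0.754. EZH2 was at -0.09 here, with an interval for its ratio that included 1 (0.838 to 1.03). The counting interval of the ratio lay below 1 for 31 genes against S473A and for 32 against wt. The same count was not made over all genes, 60.7% of which were below 0 in both comparisons. These counts therefore do not show anything particular to the members.

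Between S473A and wt the 40 genes lay close together. Of the 40, 0 were counted as lower (0.656% of all genes) and 0 as higher (0.639%), 0 were 2-fold apart (0.0173%), and 15 were below 0 (50.2%). The median was 0.01, with a range of -0.18 to 0.14. Counts of 0 lower and 0 higher also held when centred (0.656% and 0.665% of all genes) and with the trends removed (0.593% and 0.565%). The lowest was EZH2 and the highest DNMT3A, at 1.13 times its wt level (interval 1.03 to 1.24). The counting interval, not counted over all genes, held 1 for 33 of the 40 genes. It lay below 1 for EZH2, HDAC1 (0.946, interval 0.897 to 0.997) and MTA3 (0.942, interval 0.889 to 0.999), and above 1 for DNMT3A, ATRX (1.09, interval 1.02 to 1.17), NCOR1 (1.07, interval 1.02 to 1.13) and UHRF1 (1.06, interval 1.02 to 1.10).

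Transcript length and GC content moved with the differences of S473D. The 10787 genes with a transcript in the reference were put into 3 equal groups by its length, and their median S473D minus wt difference was 0.13 in the group of shortest transcripts, -0.12 in the middle group and -0.24 in the group of longest transcripts, which begins at 4307 bases. Of the 40 genes, 24 fell in the group of longest transcripts, with a median of -0.30 and 11 counted as lower, beside 34.7% of all genes in it. Spearman's rho between length and the difference was -0.20 across the 40 genes and -0.44 across all genes, and with GC content -0.56 and -0.26. All of these points come from the same libraries, and the values are given as a description. The 20 members above the median GC content of 48.3% had a median difference of -0.31, and all 20 were below 0, while the 20 under it had one of -0.19, with 14 below 0. With the trends on length and GC content removed the order turned round, to -0.11 above it and -0.19 under it. The same split was not made over all genes, 60.7% of which were below 0.

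**Figure D4:**
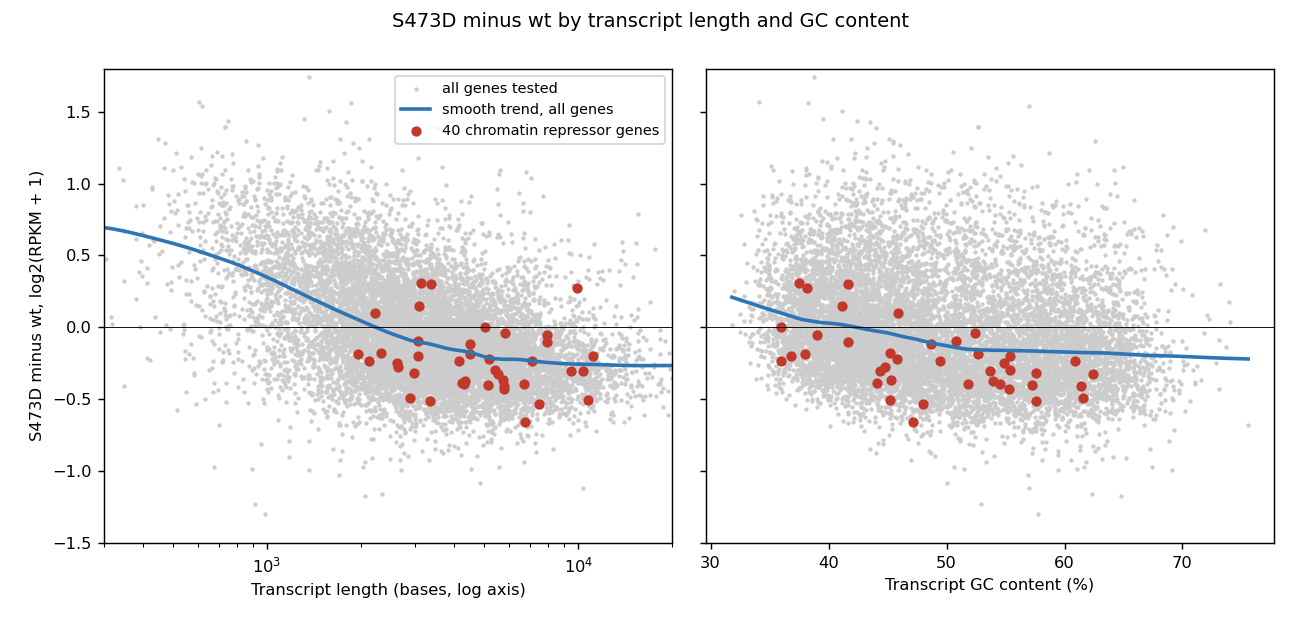
Difference S473D minus wt of log2(RPKM + 1) against transcript length (left, log axis, axes cropped) and transcript GC content (right) for all genes tested (grey), with the smooth trend over all genes (blue) and the 40 chromatin repressor genes (red). The members sit mostly at lengths where the trend is below 0, and those above 0 include HDAC2, HELLS and PPHLN1.

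Other chromatin genes, taken from lists of complexes rather than by their values, were lower in S473D as well. Of 166 measured genes of other repressive or remodelling complexes, histone chaperones and demethylases, 66 were lower than wt (39.8%) and 4 higher (2.41%), beside 22.9% and 16.6% of all genes. Their median was -0.27, or -0.15 with trends on length and GC content removed, beside -0.10 for all genes in both cases. The other PRC1 genes gave 7 lower and 1 higher of 21, with PCGF2 at -0.73 and PHC1 at -0.55 against PCGF6 at 0.33 and YAF2 at 0.30. BAF and PBAF subunits gave 11 lower and 0 higher of 21, with PHF10 at -0.68 and BCL7A at -0.49 against BCL7B at 0.16 and BCL7C at 0.12. SIN3 complex subunits other than SIN3A gave 1 lower and 0 higher of 13, a smaller share than among all genes, with a median of -0.09 beside -0.10. The 1 was SAP130 at -0.55, with SIN3B at -0.28, BRMS1 at 0.20 and SAP30 at 0.30. The NCoR and CoREST partners gave 7 lower and 0 higher of 14, with ZNF217 at -0.63 and TBL1X at -0.60 against CTBP2 at 0.02. With the trends removed, the list medians were -0.05 for PRC1, -0.20 for BAF and PBAF, -0.12 for SIN3 and -0.20 for these partners.

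Genes that work with HUSH and with the H3K9 enzymes included MORC2 and ATF7IP, both at -0.48, ZNF638 at 0.01 and MORC3 at 0.17, and 3 of those 6 were lower. The other repressive methyltransferase genes gave 5 lower and 0 higher of 11, with SETD8 at -0.59 and ZNF644 at 0.15. Among PRC2 accessory genes 4 of 7 were lower, with JARID2 at -0.60 and C17orf96 at -0.40 against MTF2 at 0.27 and PHF1 at 0.12. Other deacetylases gave 4 lower and 1 higher of 12, from HDAC11 (-0.69) and HDAC6 (-0.48) to HDAC9 (0.29) and SIRT7 (0.34). Other NuRD subunits and methyl-CpG readers gave 4 lower and 0 higher of 9, with ZNF592 (-0.43) on the low side and, at the high end, CDK2AP1 (0.21) and MBD4 (0.32). Each of these lists held genes on both sides of wt. With the trends on length and GC content removed, the median was -0.20 for the HUSH list and -0.05 for the methyltransferases. It was -0.03 for PRC2 accessory genes, -0.10 for deacetylases and -0.08 for NuRD subunits and readers. The median of all genes with a transcript was -0.10.

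Remodellers of the ISWI, INO80 and CHD families gave 8 lower and 0 higher of 20, with CHD8 at -0.53 and BAZ2A at -0.52 against SMARCA1 at 0.11 and POLE3 at 0.15. Histone chaperones gave 4 lower and 1 higher of 13, with UBN1 at -0.59 and SSRP1 at -0.55 against ASF1B at 0.27 and ASF1A at 0.51. Demethylases and TET dioxygenases gave 10 lower and 1 higher of 21, with KDM3B and KDM4A both at -0.62 against JMJD6 at -0.17 and TDG at 0.35. Genes that activate transcription, namely acetyltransferases, H3K4 and H3K36 methyltransferases and bromodomain readers, were lower in greater number, 22 of 29 with 1 higher and a median of -0.45 (-0.18 with the trends removed). KAT7 and NSD1 led them at -0.66, against RBBP5 at -0.02 and DPY30 at 0.70. As measured, lower levels in S473D were found among activators and repressors of chromatin alike. The activating genes had a median transcript length of 7436 bases. Among all genes, the group of longest transcripts had a median of -0.24, with 34.7% lower. With the trends removed, the other medians here were -0.15 for remodellers, -0.25 for chaperones and -0.19 for demethylases, beside -0.10 for all genes.

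**Figure D5:**
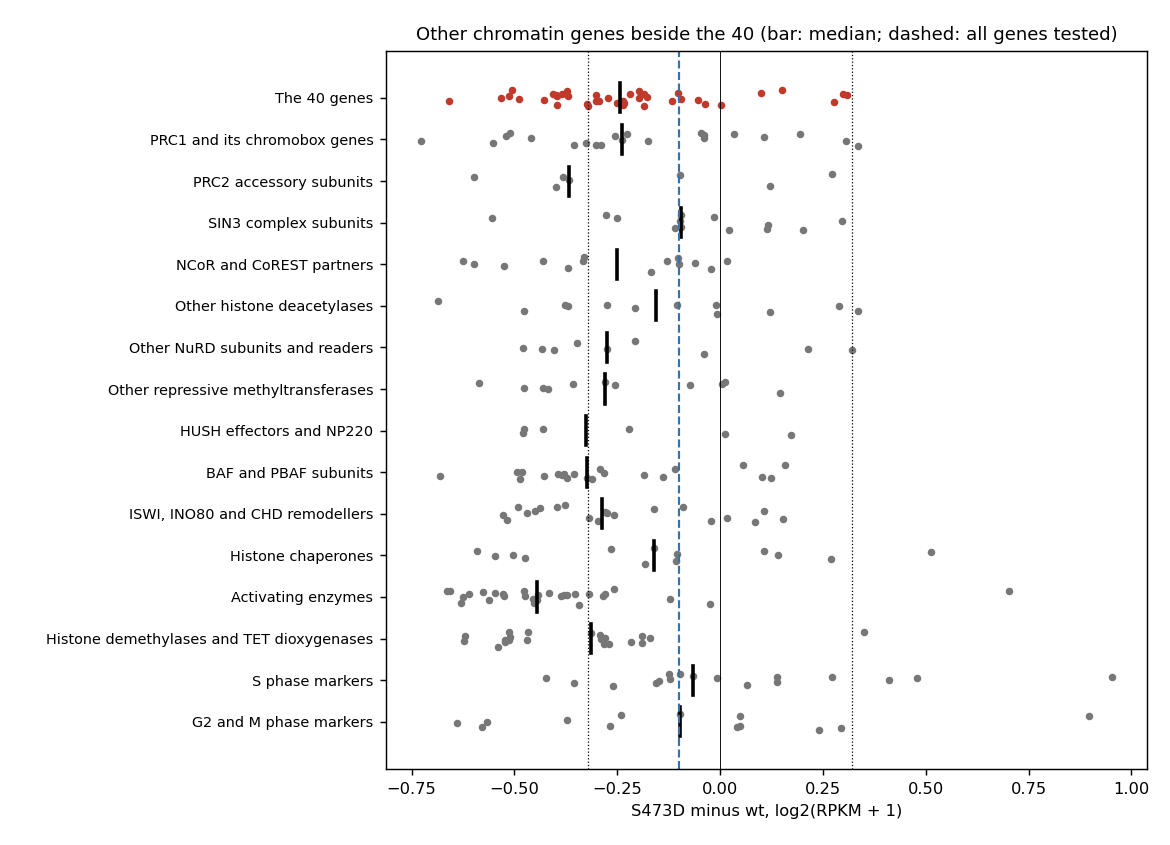
S473D minus wt difference of log2(RPKM + 1) for each measured gene (points) and the list median (black bar) in the 40 genes, 13 lists of other chromatin genes and the cell cycle markers. Dotted lines mark -0.32 and 0.32, and the dashed line the median of all genes, -0.10. The 40 genes have a median of -0.24 and the activating enzymes one of -0.45.

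Replication and division markers were measured beside the members that are usually higher in dividing cells. The 17 S phase markers summed to 990 RPKM in S473D, 924 RPKM in S473A and 922 RPKM in wt, with 2 lower and 3 higher than wt in S473D and a median of -0.07, from TYMS (-0.42) and CDT1 (-0.35) to CCNE2 (0.48) and PCNA (0.95). The 13 markers of G2 and M phase summed to 794, 814 and 812 RPKM, with a median of -0.10 and 4 lower and 1 higher, from MKI67 (-0.64) and PLK1 (-0.58) to CCNB2 (0.30) and CDK1 (0.90). None of these markers was at 0 in any library. UHRF1 (-0.40), CHAF1A (-0.51), DNMT1 (-0.29), EZH2 (-0.27) and HELLS (0.31) did not share 1 direction as measured. With the trends on length and GC content removed, these genes were at -0.18, -0.36, 0.00, -0.41 and 0.07 in that order. The marker medians were then 0.05 for S phase and -0.25 for G2 and M phase, beside -0.10 for all genes. The part of the cell cycle in the members' values was not tested.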

How the data were processed

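Total RNA was extracted with TRIzol and libraries were made by Illumina's procedure, per the labels' protocols. Bowtie, Partek and genome build hg19 are named in the submitters' processing notes, with no versions, and the sources used here do not give the gene annotation, strand handling or filters. The authors deposited log2 RPKM, 1 value per gene and library, whose lowest, -3.32, equals the log2 of 0.1, so the values were read as log2(RPKM + 0.1).

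RPKM was recovered by undoing the log and taking off 0.1. Of 19076 lines, 27 with symbols repeated or turned into dates were left out, and 169 short RNAs were left out of the 11579 genes tested. Depth was estimated from values worth 1 read, using GENCODE release 29 transcript lengths (GRCh38, used for no coordinates). Of the low values, 47.2% to 48.8% were whole reads within 2%, so reads per gene are estimates, and a gene whose transcript differs from the authors' gene model has a wrong interval. Gene transcripts of 10787 genes (93.2%) also gave length and GC content, and smooth trends (lowess, fraction 0.2, statsmodels 0.14.6) were removed as an alternative. Ratio intervals are exact conditional binomial intervals (scipy 1.17.1), and those of changes in a ratio between genes use a normal approximation on the log scale. Scripts were tested on simulated data.

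All 40 members were named, with the 2 highest and 2 lowest genes of each other list, of which a few are not reported here. Members and lists were chosen with earlier results of these data known. No test was possible with 1 library per group, and protein sequences were not used here. Alternatives were pseudocounts of 0.1 and 0.5, other filters, centring, scaling by a trimmed mean of log ratios, and trend removal. RPKM is relative to all reads of a library, so abundant transcripts that gain share lower all other values.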

Additional observations from a re-analysis of the deposited data

How the results depend on the processing

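With 1 library per form, no value here has a replicate check, and no paired analysis was possible because each group holds 1 sample. For S473A minus wt, 0 of the 40 genes were counted as lower or higher under any of 8 alternatives, and 0 of the 40 were 2-fold apart in any comparison under any of them. For S473D minus wt, a pseudocount of 0.1 gave 1 gene counted as higher and added DNMT3A, KDM5B and SUV39H1 to the 14 lower. A pseudocount of 0.5 added DNMT3A and SUV39H1. The median of the 40 moved to -0.14 when centred or scaled by a trimmed mean (6 lower and 3 higher under each), to -0.13 with length and GC trends removed (9 lower), and to -0.03 with trends removed and centred (1 lower and 2 higher). For S473D minus S473A it moved to -0.16 when centred or scaled (3 higher under each), to -0.13 with trends removed (8 lower and 0 higher) and to -0.03 with both (3 lower and 2 higher). Against wt, 9 of the 40 changed sign with trends removed and 13 once centred as well, among them genes never past the line, such as MTA3 (0.24), DNMT3A (0.05), EHMT2 (0.02) and CHAF1B (0.02) with trends removed. Trend removal turned MBD3 to 0.02 against wt and 0.01 against S473A, and to 0.12 in both once centred as well. That last setting also turned SMARCA4 to 0.04 and 0.01, EHMT1 to 0.00 against wt and DNMT3A to 0.00 against S473A. SIN3A was the only gene counted as lower than wt under every alternative. Of the 14 genes lower than wt, 5 stayed past the line with trends removed. Another 4 joined them, EZH2, FAM208A, HDAC1 and RBBP7.

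Depth limits little here, since the fewest estimated reads were 284. Overlapping loci limit more: 86.8% of the 50-base windows of the CHD4 transcript, 25.8% of those of UHRF1, 25.6% of RBBP4, 20.1% of SUV39H1, 15.4% of DAXX, 15.2% of MBD3 and 12.7% of SMARCA5 also occur in transcripts of another annotated gene, and how such reads were counted is not given in the sources used here.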

Other observations

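The 40 genes summed to 793 RPKM in S473D, 931 RPKM in S473A and 926 RPKM in wt. All RPKM in the table summed to 393381 in S473D, 330916 in S473A and 330667 in wt, so the 40 genes held 0.201%, 0.281% and 0.280% of those totals. The total was largest in S473D, so the share was further below wt there than the members' own sum.

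SMARCA5-AS1, an antisense neighbour that holds 7.39% of the 50-base windows of the SMARCA5 transcript, and EHMT2-AS1, which holds 7.52% of those of EHMT2, share sequence with members, and strand handling is not given in the sources used here.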
